A study of Mus musculus with 6 samples.

Results

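The genes described here are 39 transcripts of white blood cells, or leukocytes, measured in cartilage cells from which leukocytes had been gated out. They were the genes of the deposited table whose symbol equals a name on a fixed list of neutrophil, pan-leukocyte, myeloid, macrophage and lymphocyte genes, 39 of 54532 genes in all. The study sequenced RNA of cells sorted from *Gli1-CreERT2; tdTomato* mice to ask how cells that express the Hedgehog target *Gli1* differ from other cells of the cartilage. In these mice a tamoxifen-dependent Cre is made from the *Gli1* locus, and Cre activity switches on the red protein tdTomato (the Ai9 allele of the sample titles). Gli1+ cells were CD45-CD31-Ter119-tdTomato+ and Gli1- cells were CD45-CD31-Ter119-tdTomato-, and there were 3 libraries of each population. All mice carried both alleles on a C57BL/6 background, received tamoxifen at 1 month of age and were harvested a day later, and both populations came from the same animals. The labels name the growth plate as the tissue, while the study describes the sequenced cells as coming from costal cartilage. A Gli1- cell is defined only by lack of recombined reporter, so this population can hold any cell that is negative for the 3 gated antigens.

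Leukocytes descend from blood stem cells of the marrow and share CD45, the receptor tyrosine phosphatase encoded by *Ptprc*, which is the antigen used to gate them out. Neutrophils make their granules in waves as they mature. Proteases and myeloperoxidase come first in the early precursors, proteins such as lactoferrin and cathelicidin follow, and mature cells hold large amounts of the calcium-binding pair S100A8 and S100A9. Macrophages are marked by the CSF1 receptor and F4/80, and B cells by the CD79 signalling chains of their antigen receptor. Lysozyme is a protein of myeloid cells in general and does not mark macrophages alone. PU.1, the product of *Spi1*, is a transcription factor of myeloid and B cells and binds a purine-rich site around GGAA.

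Promoter sequence was at hand for 27 of the 39 genes, with 30 promoters of 300 bases (RefSeq, GRCm38.p6). The letters GAGGAAGT, a form of the PU.1 site, or their reverse complement ACTTCCTC were found in 7 of the 30 (23.3%) and in 3.20% of all 32851 mouse promoters of that length. The 7 belong to *Elane*, *Prtn3*, *Mpo*, *Mmp8*, *S100a8*, *Cd53* and *Ctss*, and so include all 3 early granule genes. The letters TTGCGCAA, the palindrome of C/EBP factors, were found in 0 of the 30 and in 0.183% of all promoters, and TATAAA or its reverse complement in 7 of the 30 (23.3%) and in 13.6% of all. These strings were kept after others had been looked at, and a match is a description of letters, not a bound site. One promoter each of an early granule gene, a later granule gene and a mature neutrophil gene is shown, 5′ to 3′ on the + strand, with the PU.1 letters in capitals. They lie at chr10:79886062-79886361 (*Elane*), chr9:7558179-7558478 (*Mmp8*) and chr3:90668821-90669120 (*S100a8*).
Elane: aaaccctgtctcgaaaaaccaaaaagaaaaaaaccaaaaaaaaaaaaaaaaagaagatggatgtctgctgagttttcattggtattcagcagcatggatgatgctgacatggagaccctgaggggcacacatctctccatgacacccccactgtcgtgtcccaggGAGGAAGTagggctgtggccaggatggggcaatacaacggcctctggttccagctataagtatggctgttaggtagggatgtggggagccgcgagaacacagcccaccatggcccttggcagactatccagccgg
Mmp8: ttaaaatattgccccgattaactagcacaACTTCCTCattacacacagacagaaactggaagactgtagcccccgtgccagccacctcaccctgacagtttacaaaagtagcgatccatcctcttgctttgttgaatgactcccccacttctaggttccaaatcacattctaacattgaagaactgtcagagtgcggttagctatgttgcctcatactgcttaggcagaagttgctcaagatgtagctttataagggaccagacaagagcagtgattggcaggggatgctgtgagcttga
S100a8: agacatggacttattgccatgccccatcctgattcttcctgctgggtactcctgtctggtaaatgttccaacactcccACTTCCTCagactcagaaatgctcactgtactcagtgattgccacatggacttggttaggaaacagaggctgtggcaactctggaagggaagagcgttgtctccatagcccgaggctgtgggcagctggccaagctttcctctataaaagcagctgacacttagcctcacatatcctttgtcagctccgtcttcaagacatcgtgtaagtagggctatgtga
The capitals start at base -85 in *Elane*, -221 in *Mmp8* and -172 in *S100a8*, counted from the RefSeq gene starts at 79886312, 7558429 and 90669071, which differ from the starts in the deposited table given below.

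The libraries held between 17114101 and 18602482 counts. *Gli1*, the gene that defines the sort, had 4.55, 6.39 and 7.98 CPM (counts scaled to a common library size, with TMM factors) in Gli1+ replicates 1 to 3 and 0.724, 1.26 and 2.43 in the Gli1- replicates, which did not overlap (exact 2-sided permutation test p = 0.1, the smallest that 3 against 3 libraries allow). The 12 chondrocyte genes listed, among them *Col2a1*, *Acan* and *Comp*, summed to between 6594 and 20554 TPM (the same idea with each gene first divided by its length) in the 6 libraries. Gli1+ replicate 1 had counts on 15000 genes and the other 5 libraries on 20666 to 23360. One library stood apart in the leukocyte genes. Gli1- replicate 1 held 120926 of their counts, and the other 5 libraries held between 2404 and 8939.

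The leukocyte genes took 0.0140%, 0.0469% and 0.0133% of all counts in Gli1+ replicates 1, 2 and 3. In Gli1- replicates 1, 2 and 3 they took 0.704% (95% Wilson interval 0.700% to 0.708%, counting error only), 0.0481% and 0.0222%. The share in Gli1- replicate 1 was thus 14.6-fold the next highest and 53.0-fold the lowest. Much of the count on the listed genes in the other libraries came from *Lsp1* and *Cd68*, which supplied 35.3% to 86.9% of it there. In Gli1- replicate 1 they supplied 3.12%. Without these genes the shares were 0.00907%, 0.0151% and 0.00456% in the Gli1+ libraries and 0.682%, 0.00630% and 0.00429% in the Gli1- libraries, and Gli1- replicate 1 was 45.2-fold to 159-fold the others. Summed CPM came to 134.7, 525.1 and 126.3 in the Gli1+ libraries and to 6254, 592.8 and 201 in the Gli1- libraries, a log2 ratio of the population means of -3.16, or of -0.60 without Gli1- replicate 1. In bulk RNA, fewer leukocytes and less RNA of each leukocyte cannot be told apart.

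Of the 39 genes, 32 had their highest level in Gli1- replicate 1, against 13.1% of the 28536 genes with any count. In 28 of them the level there was over 10 times that of every other library, with other libraries raised to a floor of 3 counts, against 0.897% of those genes. The fold over the next highest library had a median of 35.9 over the 35 genes for which it could be formed. The genes not highest in that library were *Lsp1* and *Cd68*, highest in Gli1- replicate 2, *Cd74*, *H2-Aa*, *Cd79b* and *Ms4a1*, highest in Gli1+ replicate 2, and *Cd79a*, highest in Gli1+ replicate 3. Among the 5 other libraries, Gli1+ replicate 2 was highest for 23 genes and Gli1+ replicate 1 for 7. Gli1+ replicate 1 also held no count for 18 of the 39 genes. Of the 28 genes that passed the filter on low counts, 28.6% were at 0 there, against 9.56% of the 14801 genes that passed. The part of these zeros, and of the low number of genes in that library, in these levels was not tested.

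**Figure D1:**
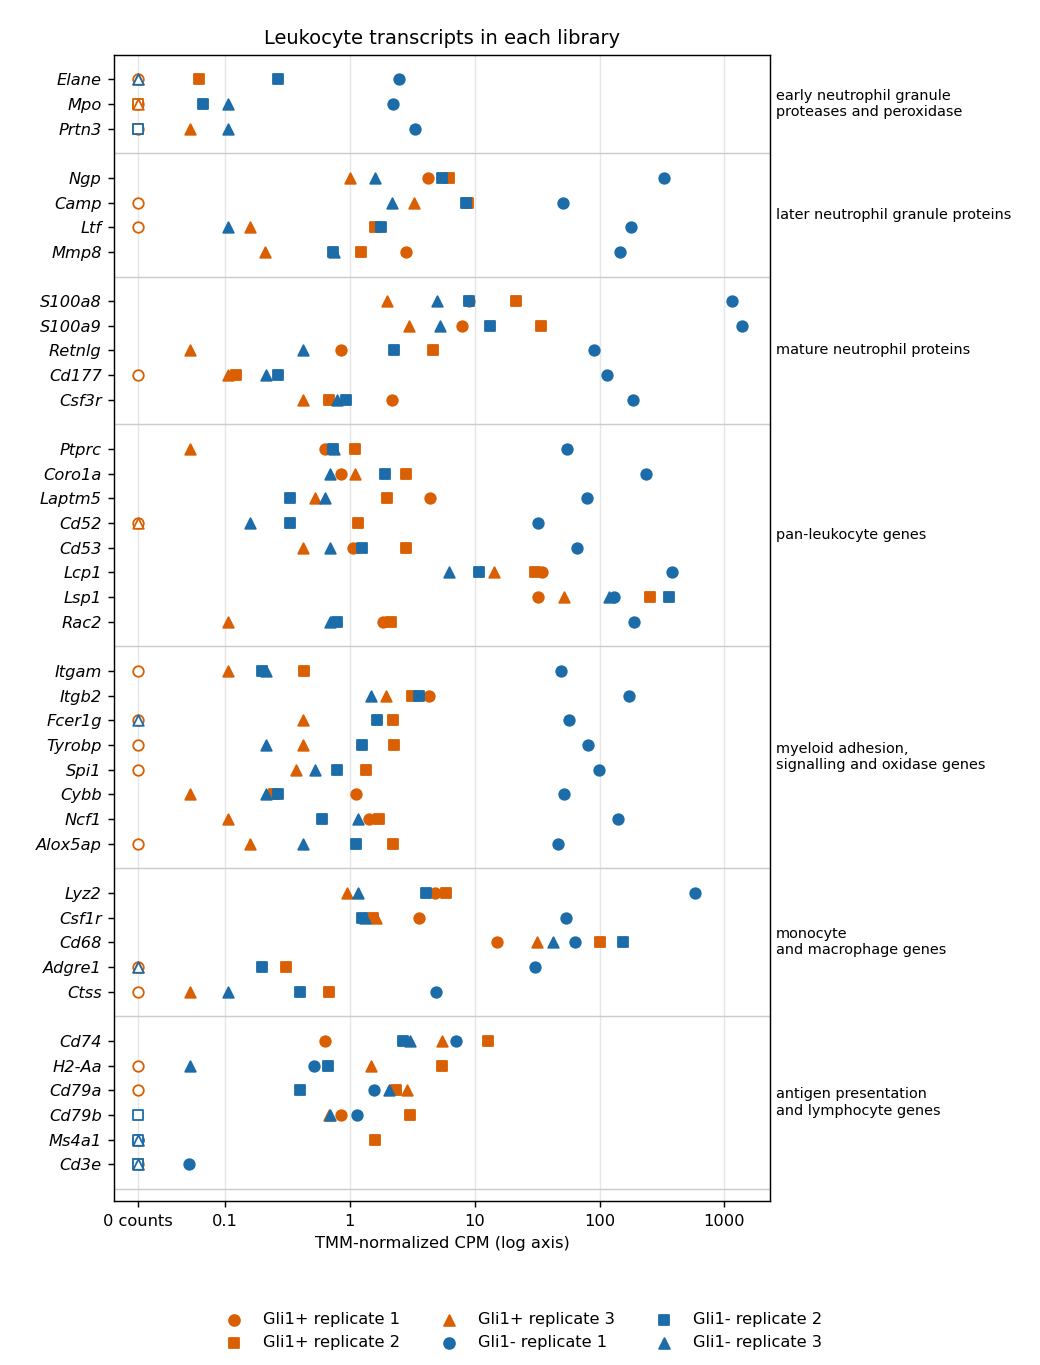
Level of each of the 39 leukocyte genes in each library, as TMM-normalized CPM on a log axis, grouped by role; open symbols at the left edge are libraries with 0 counts. The Gli1- replicate 1 circle lies far to the right of the other 5 symbols in the neutrophil, myeloid and most pan-leukocyte genes, over 10 times higher in 28 of 39, and among the other symbols in *Lsp1*, *Cd68* and the antigen presentation genes.

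*Ptprc* (chr1:138062861-138175708, minus strand, mm10), which encodes the gated CD45, was at 0.635, 1.11 and 0.0525 CPM in Gli1+ replicates 1 to 3. It was at 54.7, 0.729 and 0.741 CPM in Gli1- replicates 1 to 3. The raw counts were 12, 18 and 1 against 1057, 11 and 14. Gli1- replicate 1 was 49.5-fold over the next library, and the populations overlapped both with and without it.

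The early granule genes were at or near the floor except in Gli1- replicate 1. *Elane* (chr10:79886247-79888215), which encodes neutrophil elastase, had 0, 1 and 0 counts in the Gli1+ replicates and 48, 4 and 0 in the Gli1- replicates. *Prtn3* (chr10:79874476-79883174), which encodes proteinase 3, had 0, 0 and 1 counts against 64, 0 and 2. *Mpo* (chr11:87793581-87804413), which encodes myeloperoxidase, had 0, 0 and 0 counts against 43, 1 and 2. Each was thus seen above 4 counts in 1 library only, and the genes summed to 155 counts there and to at most 5 elsewhere. On the TPM scale the 3 genes together reached 18.6 in Gli1- replicate 1, the later granule genes 1639 and the mature neutrophil genes 16700. None of the 3 passed the filter.

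The later granule genes stood far higher in the same library. *Ngp* (chr9:110419747-110423012), which encodes neutrophilic granule protein, was at 4.23, 6.26 and 0.998 CPM in the Gli1+ replicates and at 329, 5.50 and 1.59 in the Gli1- replicates. *Camp* (chr9:109847379-109849617), which encodes cathelicidin, was at 0, 8.78 and 3.26 CPM against 50.8, 8.55 and 2.17. *Mmp8* (chr9:7558456-7568485), the neutrophil collagenase whose promoter is shown above, was at 2.80, 1.23 and 0.210 CPM against 147, 0.729 and 0.741. In Gli1- replicate 1 these levels were 52.5-, 5.79- and 52.3-fold over the next library, so *Camp* stood out least. *Camp* had 15.5 counts per 100 counts of *Ngp* there, 0 in Gli1+ replicate 1 and 137 to 326 in the other 4 libraries. *Ltf*, which encodes lactoferrin, was at 178 CPM in Gli1- replicate 1 and between 0 and 1.79 elsewhere.

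*S100a9* and *S100a8* were the leukocyte genes with the highest level per length in Gli1- replicate 1, at 9775 and 6033 TPM. In 4 of the other 5 libraries *Cd68* was above both, at 88.3 to 252 TPM against 20.2 to 140 for *S100a9*. *S100a9* (chr3:90692632-90695721) was at 7.88, 34.2 and 2.99 CPM in the Gli1+ replicates and at 1395, 13.2 and 5.24 in the Gli1- replicates. *S100a8* (chr3:90668978-90670035), 22596 bases away, was at 8.99, 21.4 and 1.996 CPM against 1145, 8.95 and 4.97. By TPM they ranked 3rd and 9th of all genes in Gli1- replicate 1, and *Ngp* ranked 130th. *S100a8* had 82.1 counts per 100 of *S100a9* there, within the 62.7 to 114 of the other libraries. *Retnlg* (chr16:48872621-48874496), which encodes a resistin-like protein of neutrophils, was at 0.847, 4.61 and 0.0525 CPM against 90.5, 2.25 and 0.423. *Cd177*, a neutrophil surface antigen, had 2213 counts in Gli1- replicate 1 and at most 4 in any other library, a 431-fold excess over the next. *Csf3r*, the receptor for the neutrophil growth factor G-CSF, was at 184 CPM in Gli1- replicate 1 and at 0.420 to 2.17 elsewhere.

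Among the pan-leukocyte genes, 7 of 8 were highest in Gli1- replicate 1. *Coro1a* (chr7:126699773-126707787), which encodes an actin-binding coronin, was at 0.847, 2.82 and 1.10 CPM in the Gli1+ replicates and at 237, 1.92 and 0.688 in the Gli1- replicates. *Rac2* (chr15:78559167-78572783), the blood cell Rac GTPase, was at 1.85, 2.15 and 0.105 CPM against 188, 0.796 and 0.688. *Lsp1* (chr7:142460809-142494867), which encodes an actin-binding protein first named for leukocytes, was at 32.3, 255 and 51.5 CPM against 131, 360 and 120. *Coro1a* and *Rac2* were 83.9- and 87.3-fold over the next library in Gli1- replicate 1. *Lsp1* was instead abundant in every library, 0.365 times as high there as in Gli1- replicate 2, and lower in Gli1+ than in Gli1- in 3 of 3 same-numbered pairs. *Lcp1*, which encodes the actin-bundling plastin of leukocytes, was present in every library and highest in Gli1- replicate 1. It had 34.7, 30.5 and 14.2 CPM in the Gli1+ replicates and 379, 10.7 and 6.19 in the Gli1- replicates. Unlike *Lsp1*, it was higher in Gli1+ in the pairs of replicates 2 and 3. *Laptm5*, *Cd52* and *Cd53*, which encode membrane proteins of blood cells, were 18.2-, 27.5- and 23.5-fold over the next library in Gli1- replicate 1.

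All 8 myeloid adhesion, signalling and oxidase genes were over 10-fold higher in Gli1- replicate 1 than in any other library. *Tyrobp* (chr7:30413760-30417585), which encodes the adaptor DAP12, was at 0, 2.27 and 0.420 CPM in the Gli1+ replicates and at 81.5, 1.26 and 0.212 in the Gli1- replicates. *Fcer1g* (chr1:171229572-171234365), the shared gamma chain of Fc receptors, was at 0, 2.21 and 0.420 CPM against 56.8, 1.66 and 0. *Itgb2* (chr10:77530252-77565708), the integrin chain CD18, was at 4.29, 3.13 and 1.94 CPM against 172, 3.58 and 1.48. Their folds over the next library were 35.9, 25.7 and 40.2, and the populations overlapped in each, both with and without Gli1- replicate 1. *Spi1*, which encodes PU.1, was at 98.8 CPM in that library and at 0 to 1.35 elsewhere. The NADPH oxidase genes *Ncf1* and *Cybb* were at 142 and 51.6 CPM there, and *Alox5ap*, needed for leukotriene synthesis, at 46.6. *Itgam*, the integrin chain CD11b, had 957 counts there and at most 7 elsewhere. Of its exon bases 68.7% are shared with an annotated gene on the same strand, which had 5 counts in all libraries. *Ncf1* shares 11.1% of its exon bases with *Gtf2ird2* on the opposite strand (1092 counts in all), and the use of strand in counting is not given in the sources used here.

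The monocyte and macrophage genes split by gene. *Lyz2* (chr10:117277331-117282321), the lysozyme of myeloid cells, was at 4.81, 5.90 and 0.945 CPM in the Gli1+ replicates and at 581, 4.05 and 1.16 in the Gli1- replicates. *Csf1r* (chr18:61105572-61132149), the CSF1 receptor, was at 3.60, 1.54 and 1.63 CPM against 54.1, 1.26 and 1.32. *Cd68* (chr11:69664213-69666153), a lysosomal membrane protein, was at 15.2, 101 and 31.5 CPM against 63.8, 155 and 42.4. *Lyz2* and *Csf1r* were 98.5- and 15.0-fold over the next library in Gli1- replicate 1. *Cd68* followed *Lsp1* instead, with Gli1- replicate 2 highest, Gli1+ replicate 2 next and a lower level in Gli1+ in 3 of 3 same-numbered pairs. *Adgre1*, which encodes F4/80 of macrophages, had 588 counts in Gli1- replicate 1 and at most 5 elsewhere. *Ctss*, the cathepsin of antigen-presenting cells, was lower, with 95 counts there and at most 11 elsewhere. *Csf1r* shares 15.1% of its exon bases with *Hmgxb3* on the opposite strand, which had 7493 counts over all libraries.

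The antigen presentation and lymphocyte genes were low in every library and did not follow Gli1- replicate 1. *Cd74* (chr18:60803848-60812646), the invariant chain of MHC class II, was at 0.635, 12.8 and 5.46 CPM in the Gli1+ replicates and at 7.14, 2.65 and 3.02 in the Gli1- replicates. *Cd79a* (chr7:24897381-24902197) was at 0, 2.33 and 2.89 CPM against 1.55, 0.398 and 2.06. *Cd79b* (chr11:106311341-106314762) was at 0.847, 3.01 and 0.683 CPM against 1.14, 0 and 0.688. The populations overlapped in each, and the level in Gli1- replicate 1 was 0.378 to 0.559 times the highest of the others. *H2-Aa*, an MHC class II chain, had 0, 89 and 28 counts in the Gli1+ replicates and 10, 10 and 1 in the Gli1- replicates. *Ms4a1*, the B cell antigen CD20, had 26 counts in Gli1+ replicate 2 and 0 elsewhere. *Cd3e* of the T cell receptor complex had 1 count in all, in Gli1- replicate 1, so T cell RNA was not detectable by this gene at this depth.

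**Figure D2:**
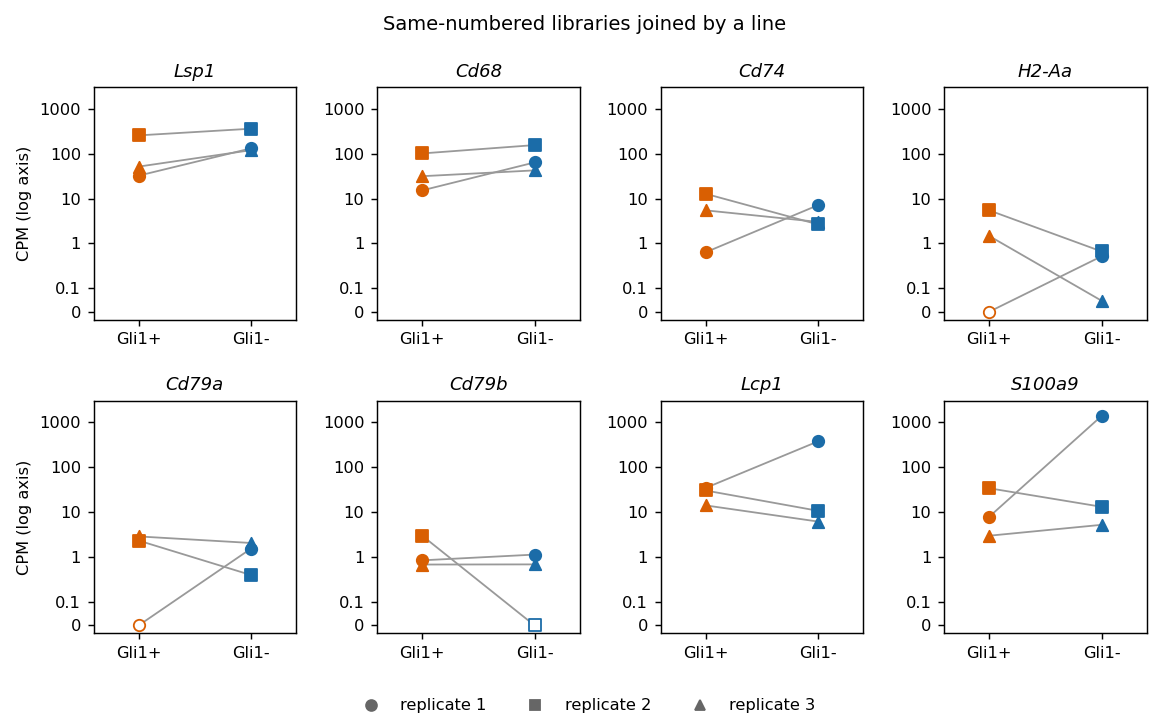
CPM on a log axis in the 3 Gli1+ and 3 Gli1- libraries for 8 genes, with same-numbered libraries joined and open symbols for 0 counts. *Lsp1* and *Cd68* rise along all 3 lines from Gli1+ to Gli1-, *Cd74*, *H2-Aa* and *Lcp1* fall along the lines of replicates 2 and 3 and rise along that of replicate 1, and *S100a9* shows the single point at 1395 CPM.

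The make-up of the counts on the leukocyte genes differed between the libraries. The 12 neutrophil genes supplied 58.2% of them in Gli1- replicate 1 and 20.0%, 15.0% and 8.11% in the Gli1+ replicates. In Gli1- replicates 2 and 3 they supplied 7.17% and 8.19%. These totals include *Lsp1* and *Cd68*, which supplied 3.12% in Gli1- replicate 1 and 35.3% to 86.9% elsewhere. With *Lsp1* and *Cd68* left out of the total, the neutrophil genes held 70422 of 117152 counts in Gli1- replicate 1. They then held 641 of 1172 and 311 of 735 in Gli1- replicates 2 and 3. In Gli1+ replicates 1 to 3 they held 509 of 1647, 1286 of 2746 and 195 of 825. The pan-leukocyte genes, *Lsp1* among them, supplied 18.7% in Gli1- replicate 1 and 53.7% to 64.4% in the other 5. Antigen presentation and lymphocyte genes supplied 8.32% in Gli1+ replicate 3 and 4.79% in Gli1+ replicate 2, but 0.166% in Gli1- replicate 1, in which their counts were 201.

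**Figure D3:**
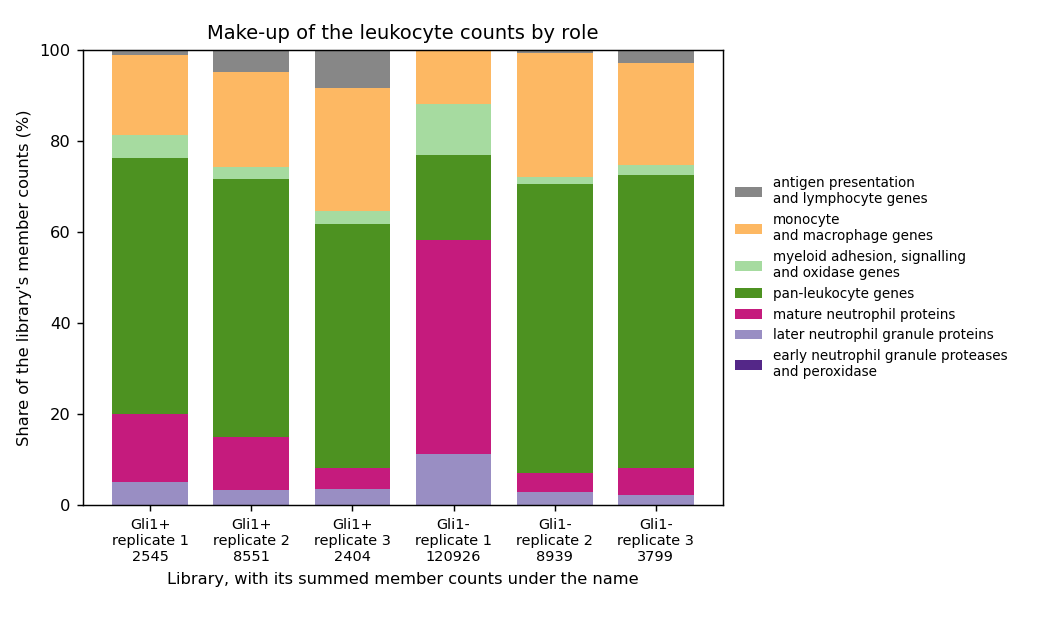
Share of each library's counts on the leukocyte genes that each of the 7 roles supplied, with the summed counts under each library name. *Lsp1* and *Cd68* are included. Mature neutrophil genes make up 46.8% in Gli1- replicate 1 and 4.32% to 14.8% in the other 5 libraries, where pan-leukocyte genes make up more than any other role.

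Between the populations, the leukocyte genes were lower in Gli1+ by size and not by test. Of the 39, 28 passed the filter, which asks for the equivalent of 10 counts in at least 3 libraries. *Elane*, *Mpo*, *Prtn3*, *Cd177*, *Cd52*, *Itgam*, *Cybb*, *Adgre1*, *Ctss*, *Ms4a1* and *Cd3e* did not. Of the 28, 0 were called at |log2FC| over 1 and adjusted p under 0.05 (edgeR quasi-likelihood test, Benjamini-Hochberg over all genes), beside 0.0% of the 14801 genes tested, whose smallest adjusted p was 0.9999. At an unadjusted p under 0.05 there were 14, all lower in Gli1+, against 2.04% of all genes in that direction. DESeq2 called 0 of the 28, but its outlier filter (Cook's distance) withheld a p-value from 21 of them, against 1.07% of all genes, and gave one to 7, with 0 at an unadjusted p under 0.05. The log2FC was below 0 in 24 of the 28, with a median of -4.42 beside 0.0013 for all genes tested. *Ptprc* had a log2FC of -4.96 ± 1.86 (SE), *S100a9* of -4.97 ± 2.05 and *Lyz2* of -5.65 ± 2.13. Of the granule genes, *Ngp* was at -4.87 ± 1.85, *Mmp8* at -5.12 ± 2.06 and *S100a8* at -5.16 ± 2.04. Among genes shared by several leukocyte types, *Coro1a* was at -5.65 ± 2.03, *Rac2* at -5.52 ± 2.18 and *Itgb2* at -4.24 ± 1.62. These 9 belong to the 14, with *Ltf*, *Csf3r*, *Cd53*, *Spi1* and *Ncf1*. Outside it were *Tyrobp*, *Fcer1g*, *Csf1r*, *Retnlg* and *Camp*, at -4.95 ± 2.19, -4.48 ± 2.25, -3.06 ± 1.42, -4.09 ± 1.97 and -2.36 ± 1.58. Each of these values had an adjusted p of 0.9999 in edgeR. The 4 genes above 0 were *Cd74*, *H2-Aa*, *Cd79a* and *Cd79b*, at 0.56 ± 0.96, 2.48 ± 1.63, 0.37 ± 1.38 and 1.29 ± 1.31. The populations were free of overlap in 0 of the 28, against 8.49% of all genes tested, and of the 11 others only in *Mpo* and *Cd177*. Outside Gli1- replicate 1 these genes were near the floor, with at most 2 counts of *Mpo* and 4 of *Cd177* in a library. The share free of overlap among all genes outside the filter was not computed. The exact 2-sided permutation test over libraries gave p = 0.1 for *Mpo* and *Cd177* and higher values for the other 37.

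These differences rested on Gli1- replicate 1. Without it, 6 of 28 log2FC values were below 0 and the median was 0.39, with 0 genes called. The standard errors stayed wide, and *Ptprc*, *S100a9* and *Lyz2* were then at -0.31, 0.70 and 0.57. *Lsp1* and *Cd68* were the exceptions, at -0.85 ± 0.83 and -0.82 ± 0.76 with all libraries and at -1.08 and -1.01 without that library. With the replicate number as a block the median was -1.49 and 0 were called, and *Lsp1* was at -1.24 ± 0.37 (edgeR adjusted p = 0.472) and *Cd68* at -1.03 ± 0.41 (edgeR adjusted p = 0.576). DESeq2 with the block called *Ptprc* lower (log2FC -3.38, adjusted p = 0.0486), 1 of 28 against 2.89% of all genes. With no filter on low counts, edgeR called 26 of the 39 lower, against 0.866% of all genes, and in each of these 26 Gli1- replicate 1 held the highest level.

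**Figure D4:**
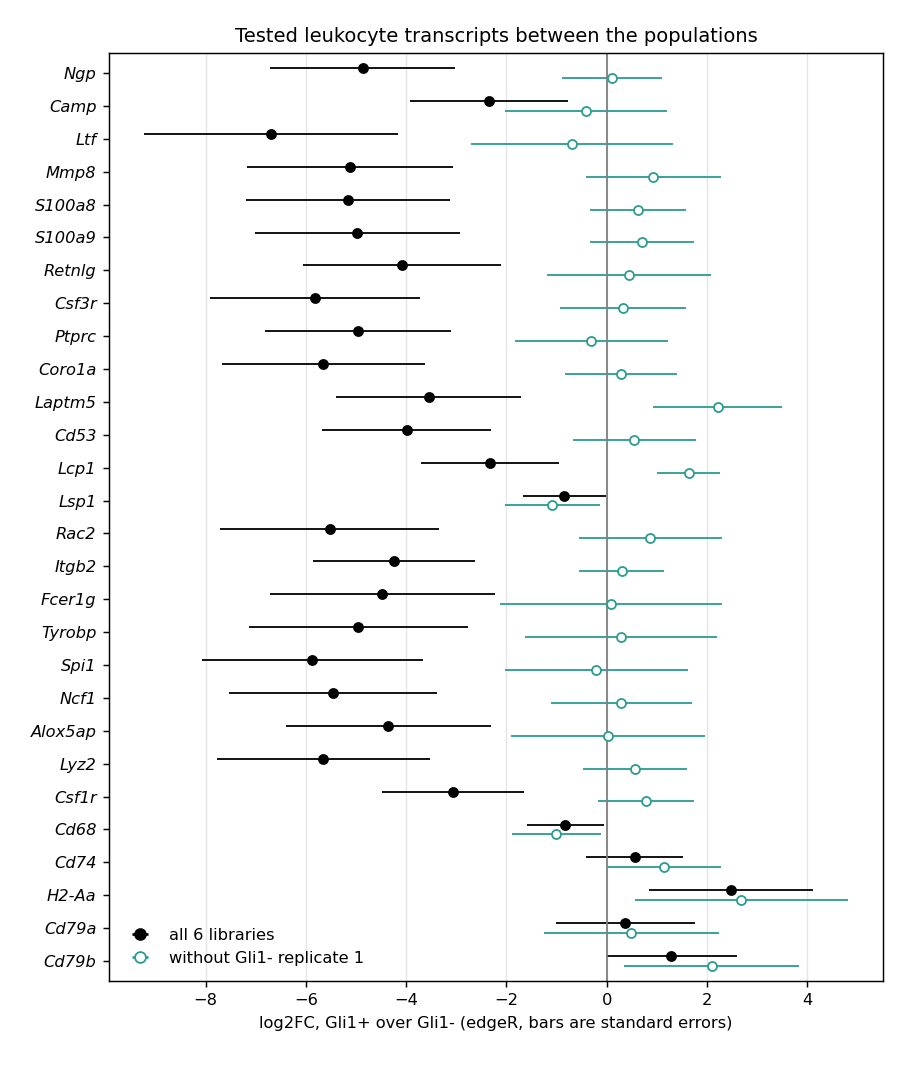
log2FC of Gli1+ over Gli1- for the 28 tested leukocyte genes, with standard errors, from all 6 libraries (filled) and without Gli1- replicate 1 (open). The median moves from -4.42 to 0.39, and *Lsp1*, *Cd68*, *Cd74*, *H2-Aa* and *Cd79a* are the genes whose values moved least.

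Within replicates 2 and 3 alone, edgeR with the replicate block called 4 genes higher in Gli1+. *Camp*, *Coro1a*, *Fcer1g*, *Tyrobp*, *Csf1r* and *Cd79a* were also higher in Gli1+ in both same-numbered pairs but were not called. In a fit chosen after the data had been seen, with both replicate 1 libraries left out and the number as a block, edgeR called *Lcp1* (log2FC 1.35 ± 0.26, adjusted p = 1.1e-05), *Cd74* (1.55 ± 0.36), *H2-Aa* (3.43 ± 0.66) and *Cd79b* (2.13 ± 0.79, adjusted p = 0.0473). *Cd79b* was higher in Gli1+ only in the pair of replicate 2, in which the Gli1- library had 0 counts, and the other 3 in both pairs. That is 4 of 28, against 3.16% of all genes called higher. DESeq2 in the same design called *Lcp1*, *Cd74* and *H2-Aa*, 3 of 28 against 1.82%. *Lsp1* was lower in both tools (edgeR log2FC -0.86 ± 0.21, adjusted p = 0.000832) but under the fold threshold. In this design 2 pairs leave a single residual degree of freedom, and without the block 0 were called. Genes of other cell types were called in the same edgeR fit, 16 lower in Gli1+ and 2 higher of the 53 tested, beside 716 genes called lower and 485 higher of all 15331. Those lower were 7 of 10 fibroblast genes, 3 of 12 chondrocyte genes, 2 of 4 tested osteoclast genes, 2 of 2 tested erythroid genes, 1 endothelial gene and 1 other monocyte and macrophage gene. Those higher were 2 of 7 tested other neutrophil genes, and their part in the 4 calls was not tested. *Lcp1* and *H2-Aa* were described beyond the naming rule, after their values had been seen.

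Other genes of the same cell types were taken from lists that do not share a gene with the 39. The neutrophil list showed the same library most clearly. All 16 other neutrophil genes were highest in Gli1- replicate 1, 14 of them over 10-fold, with 24294 counts against 219 to 562 in the other 5. *Mmp9*, a gelatinase stored in neutrophil granules, was at 399 CPM there and at 1.85 to 16.5 elsewhere, and *Hp*, which encodes haptoglobin, at 259 against 4.60 to 18.0. Of 18 other monocyte and macrophage genes 13 were highest there, 3 over 10-fold, and of 16 other lymphocyte genes 4, with 0 over 10-fold. Summed counts of the other monocyte and macrophage genes were 6248 in Gli1- replicate 1 and 7227 in Gli1- replicate 2. Of these 18 genes, 4 passed the filter on low counts, and such sums can rest on a few abundant genes. Of the other gated antigens, *Pecam1*, which encodes CD31, was at 6.05 CPM there and at 0.798 to 2.59 in the others. The endothelial list had 6 of 10 genes highest there, with 0 over 10-fold. Chondrocyte and skeletal muscle genes were highest there in 0 of 12 and 0 of 8, and fibroblast genes in 1 of 10. In edgeR with all 6 libraries and no block, 0 of the 52 tested genes of these and the other lists were called, with 7 at an unadjusted p under 0.05, and DESeq2 called 1 of the 52, a fibroblast gene lower in Gli1+. Their part in the differences between populations was not tested.

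**Figure D5:**
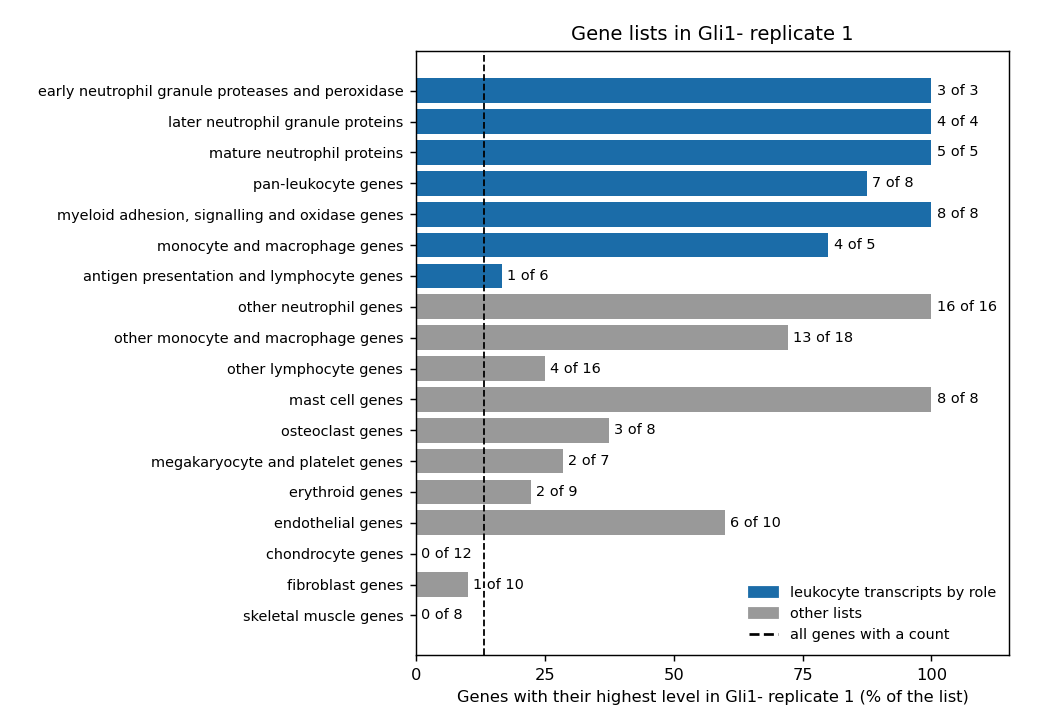
Share of each list's genes whose highest level lay in Gli1- replicate 1, for the 7 roles of the 39 leukocyte genes (blue) and 11 other lists (grey), with counts beside the bars and the 13.1% of all genes with a count as a dashed line. Neutrophil, myeloid adhesion and mast cell lists reach 100%, and chondrocyte and muscle lists are at 0.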

How the data were processed

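Poly(A) RNA of 3 Gli1+ and 3 Gli1- libraries was sequenced. The authors deposited 1 table of counts, whole reads per gene and library without normalization, made per the submitters' processing notes with HISAT2 2.0.5, featureCounts 1.5.0-p3 and mm10. Annotation and strand use are not given in the sources used here, so counts of overlapping genes may be shared or lost. Totals were 17114101 to 18602482. There were 0 columns of per-sample values left unused and 0 rows without a gene name.

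Genes were filtered with filterByExpr (minimum count 10), scaled by TMM, and tested by edgeR's quasi-likelihood test (edgeR 4.0.16, R 4.3.3) on all 6 libraries, with Benjamini-Hochberg adjustment over all genes and calls at |log2FC| over 1 and adjusted p under 0.05. Differences are Gli1+ over Gli1-. DESeq2 1.42.0, limma-voom (limma 3.58.1), other scalings and filters, a replicate block and leaving out libraries were alternatives. The code was tested on simulated data. CPM uses TMM scaling, TPM the gene lengths of the table, and 3 counts were taken as the floor. Intervals and floors cover counting error only. The Methods call the libraries biological replicates, and p-values measure the spread between them. Libraries with the same number deviated together, with correlations across genes of 0.223, 0.720 and 0.471 for numbers 1, 2 and 3. For replicate 1 of Gli1+ the value with Gli1- number 3 was higher (0.275) than with its own, and that of Gli1+ number 3 with Gli1- number 1 was 0.107. All own-number values were over 0.1. With Gli1+ numbers 1 and 3 matched to Gli1- numbers 3 and 1 instead, every value was also over 0.1. Libraries of number 2 correlated below 0 with those of other numbers (-0.616 to -0.318). The correlations thus set number 2 apart but cannot decide how numbers 1 and 3 pair. Pairing by number was assumed, because each population was sorted from shared animals. Results by replicate block or same-numbered pair rest on this assumption.

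The 39 genes and all lists were chosen with earlier results of these data known. Per-library values are given for *Ptprc* and the 3 genes of each role with the highest mean TPM, and of other lists for at most 3 genes plus *Pecam1*; genes beyond this were named after their values were seen. Coordinates are those of the table, and 36 of the 39 genes have the same ones in GENCODE M21.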

Additional observations from a re-analysis of the deposited data

How the results depend on the processing

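Across all genes tested, 0 were called by edgeR with TMM, RLE or library totals alone, with TMM from which blood cell genes were left out, with a filter of 10 counts in every library of 1 population, at the adjusted p alone and when any 1 library or both replicate 1 libraries were left out, nor by limma-voom. Without a filter edgeR called 267 genes, and DESeq2 called 30. For the leukocyte genes the calls were 26 without a filter and 0 in DESeq2. With the replicate block edgeR called 0 genes and 0 of the leukocyte genes, and DESeq2 called 428 and 1. In 2 designs added after the data had been seen, with the replicate block and both replicate 1 libraries left out, edgeR called 1201 genes with 4 leukocyte genes among them and DESeq2 781 with 3. Of the other lists, edgeR with or without the replicate block and limma-voom called 0 genes, while 17 were called without a filter, 1 in DESeq2, 7 in DESeq2 with the block, and 18 in edgeR and 12 in DESeq2 with the block and replicate 1 left out.

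The median log2FC of the tested leukocyte genes was -4.42 and lay between -4.98 and -4.42 under the other scalings and filters and in DESeq2. It was -2.34 in limma-voom, -1.49 in edgeR and -1.40 in DESeq2 with the replicate block, and 0.19 and 0.14 in the designs without replicate 1. Leaving out libraries gave -5.44 to 0.58, with the positive values where Gli1- replicate 1 was left out. The log2 ratio of the summed CPM was -3.16 and became -0.60 without Gli1- replicate 1, within a range of -4.17 to -0.29 over the libraries left out, and -2.13 as the mean of within-number ratios with the block. It was -2.66 without *S100a8* and *S100a9* and -4.37 as summed TPM.

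For single genes, 297 of 373 outcomes kept their direction and their side of the threshold, 22 gained a call, 0 lost one and 56 changed sign, 2 of which are calls of *Lcp1* gained with replicate 1 left out, and the cause was not tested. Over the libraries left out, the log2FC ranged, gene by gene, as follows: *Ngp* -5.49 to 0.11, *Camp* -3.65 to 0.16, *Mmp8* -6.17 to 0.93, *S100a9* -6.45 to 1.00, *S100a8* -6.15 to 0.74, *Retnlg* -6.11 to 0.79, *Coro1a* -6.36 to 0.58, *Rac2* -6.16 to 0.87, *Tyrobp* -7.00 to 0.87, *Fcer1g* -6.49 to 0.67, *Itgb2* -4.86 to 0.29, *Lyz2* -6.29 to 0.57, *Csf1r* -3.68 to 0.79, *Cd74* -0.49 to 1.67, *Cd79a* -0.20 to 1.07 and *Lcp1* -2.92 to 1.64. With the replicate block and replicate 1 left out, the values with a changed sign were, in edgeR, *Camp* 0.28, *S100a9* 0.41, *S100a8* 0.12, *Retnlg* 0.15, *Coro1a* 0.60, *Tyrobp* 0.88, *Fcer1g* 1.16, *Itgb2* 0.075, *Lyz2* 0.19, *Csf1r* 0.29 and *Lcp1* 1.35, and in DESeq2, *Camp* 0.29, *S100a9* 0.33, *S100a8* 0.019, *Coro1a* 0.60, *Tyrobp* 0.90, *Fcer1g* 1.79, *Itgb2* 0.080, *Lyz2* 0.15, *Csf1r* 0.28 and *Lcp1* 1.34. With the replicate block and all libraries the sign changed for *Cd79a* -0.12 and *Lcp1* 0.015 in edgeR and for *Fcer1g* 0.31, *Cd79a* -0.22 and *Lcp1* 0.030 in DESeq2, and in limma-voom for *Cd74* -0.19 and *Cd79a* -1.13. A gene at 3 counts or fewer in a library cannot be ranked there. *Mpo*, *Prtn3* and *Cd3e* were at that floor in all libraries but Gli1- replicate 1, and *Cd3e* there too.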

Other observations

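Mast cell genes moved with the same library. All 8 listed were highest in Gli1- replicate 1, 1 of them over 10-fold above every other library. *Hdc*, which encodes histidine decarboxylase and is also made by other granulocytes, was at 1.01, 0.860 and 1.21 CPM in the Gli1+ replicates and at 12.8, 0.265 and 0.635 in the Gli1- replicates. *Kit*, the receptor for stem cell factor, was at 0, 0.737 and 0.0525 CPM against 4.86, 0.464 and 1.22, and *Tpsab1*, a mast cell tryptase, had 35 counts there and at most 4 elsewhere. The defining mast cell genes were thus low even in the library where they were highest.

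Other blood lineages differed from gene to gene in the library where they were highest. In Gli1- replicate 1 the summed TPM was 69.6 for the erythroid genes and 17.1 for the megakaryocyte and platelet genes, the highest of the libraries. The osteoclast genes summed highest in Gli1+ replicate 3, at 235 TPM against 154 in Gli1- replicate 1. Among all genes with any count, 13.1% were highest in Gli1- replicate 1. Of the osteoclast genes, 3 of 8 were highest in Gli1- replicate 1, and *Acp5*, the tartrate-resistant acid phosphatase, was highest in Gli1- replicate 2 at 11.9 CPM against 0.794 to 6.39 in the other 5. Of the erythroid genes, 2 of 9 were highest in Gli1- replicate 1, and *Hbb-bs*, an adult beta globin, had 136 and 158 counts in Gli1- replicates 1 and 2 and at most 41 in the other 4 libraries. Of the megakaryocyte and platelet genes, 2 of 7 were highest in Gli1- replicate 1, and the platelet chemokine gene *Ppbp* was highest in Gli1+ replicate 1, with 68 counts against 2 to 29 in the others.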
